A study of Rattus norvegicus with 11 samples.

Results

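Immediate-early genes of growth control and stress were examined in the medial prefrontal cortex after heroin self-administration in rats. The 8 genes were Klf10, Btg2, Ier2, Gadd45a, Gadd45b, Gadd45g, Snf1lk and Npas4. They were chosen by gene name among the 35561 gene names and transcript identifiers of the array, with earlier results of these data known. All 8 were on the array, Klf10 with 2 probes and each of the others with 1, and 7 of the 8 were detected on all 11 arrays. Npas4 was detected on 7 arrays. The rats were male, 4 months of age, and had an extinction session after 14 days of abstinence, directly before the brain was taken. The 6 heroin rats had self-administered heroin in daily sessions by licking a spout, and the 5 saline rats were yoked controls given saline infusions at the times set by a self-administering partner. No strain was given in the sources used here, and no group carried an engineered allele. Both groups underwent the same extinction session, so the comparison sets rats with a heroin history against rats with a saline history after that session, with no untested rats beside them.

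Immediate-early genes are transcribed within minutes of a stimulus without new protein synthesis, and in cortical neurons synaptic activity and calcium entry are strong inducers. Besides the well known Fos and Egr families they include regulators that end or redirect a response. Klf10 is a zinc finger transcription factor first found as an early target of TGF-beta. Snf1lk, now called Sik1, is a salt-inducible kinase that is itself induced by cAMP and phosphorylates the CREB coactivators of the Crtc family and class II histone deacetylases. Btg2 is an antiproliferative protein that recruits the CCR4-NOT deadenylase to messenger RNA, and Ier2 is a small nuclear protein. The Gadd45 proteins bind the kinase Map3k4 upstream of p38 and JNK and have been linked to active DNA demethylation in neurons. Npas4 is a neuronal transcription factor of the bHLH-PAS family that responds to calcium entry.

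The promoters are shown because several of these genes are known targets of CREB. RefSeq promoter windows of build GRCr8, from 250 bases before to 50 bases after the gene start, were matched for 7 of the 8 genes, Snf1lk through its present symbol Sik1. Klf10 had no entry. Both strands were searched for the cAMP response element TGACGTCA, its shorter form TGACG, the CArG box of serum response factor, TATAAA and the E-box CACGTG. The full cAMP response element was present in 2 of the 7 windows, Btg2 and Ier2, and in 1.83% of all 33469 windows. It begins 201 bases before the start of Btg2 and 66 bases before the start of Ier2. The short form, which the full element also contains, was found in 5 of the 7 and in 21.2% of all windows. The 250 bases before the start are printed below, 5′ to 3′ on the gene's strand, with the cAMP response element or its short form in capitals, for the pair with the full element and for Snf1lk, which has the short form at 191 and at 180 bases before the start, both on the opposite strand.
Btg2, GRCr8 chr13:48087691-48087940, minus strand: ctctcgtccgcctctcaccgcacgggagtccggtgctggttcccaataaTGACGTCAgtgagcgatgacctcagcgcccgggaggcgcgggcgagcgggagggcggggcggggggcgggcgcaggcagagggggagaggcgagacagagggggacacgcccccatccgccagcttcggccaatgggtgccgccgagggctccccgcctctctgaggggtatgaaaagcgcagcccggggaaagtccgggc
Ier2, GRCr8 chr19:40399123-40399372, plus strand: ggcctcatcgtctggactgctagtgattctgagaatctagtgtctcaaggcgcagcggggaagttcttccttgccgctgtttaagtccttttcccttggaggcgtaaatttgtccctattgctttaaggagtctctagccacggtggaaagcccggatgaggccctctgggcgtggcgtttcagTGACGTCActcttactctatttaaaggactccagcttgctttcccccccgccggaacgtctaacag
Snf1lk (Sik1), GRCr8 chr20:9958647-9958896, minus strand: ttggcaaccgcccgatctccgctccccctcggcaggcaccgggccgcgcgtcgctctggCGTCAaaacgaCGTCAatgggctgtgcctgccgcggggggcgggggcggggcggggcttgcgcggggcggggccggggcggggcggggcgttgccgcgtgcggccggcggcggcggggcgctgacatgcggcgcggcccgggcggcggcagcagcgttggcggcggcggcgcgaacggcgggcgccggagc
The E-box was found upstream of Gadd45b and Gadd45g, 2 of the 7 windows against 6.42% of all windows, and TATAAA only in the window of Gadd45g, against 14.2%. No window of the 7 held a CArG box, which 1.64% of all windows held. These matches describe letters in a short window and not binding, and no binding was measured.

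Signals are given in array medians, the spot intensity divided by the median of all probes on that array. This scaling does not make levels of different probes comparable with each other. Array medians ranged from 42.7 to 78.3 intensity units in heroin rats and from 58.0 to 83.2 in saline rats, and 28185 to 33835 of 41012 probes were detected. Of 25555 tested probes, 457 were higher and 237 lower in heroin rats by at least 1.4-fold with an unadjusted p under 0.02, which are the methods' thresholds. That split depended on the scaling, with 218 higher of 457 past both thresholds after quantile normalization and 33 higher of 779 after scaling to the 75th percentile. After adjustment over all tested probes 0 passed 0.05, both with limma, which put 4723 under 0.05 before adjustment, and with the methods' t-test, which put 4127 there. Heroin rats were higher by 0.18 (log2) at the median tested probe, against 0.01 after quantile normalization and -0.03 with the 75th percentile, and 78.7% of tested probes had a positive change, so quantile values stand beside the main ones. Every heroin array lay at position 4 and every saline array at position 3 of its slide, so position and group cannot be told apart. Heroin and saline rats of the same number from 2 to 6 shared a scan. All 9 neuron markers on the array, and all 8 oligodendrocyte and 8 astrocyte markers, were detected on every array. Where a level differs, fewer cells of a type and less RNA per cell cannot be told apart in this tissue.

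One control stood apart in these genes and is named before the results. Saline rat 2 had the highest level of all 11 rats for Btg2, Ier2 and Npas4 and the second highest for Gadd45g, while it was the lowest of all rats for Klf10 and Gadd45a. After quantile normalization it stayed the highest for the first 3 and became the highest for Gadd45g, but it was no longer the lowest for Klf10 or Gadd45a. Over all tested probes it was the highest rat for 6.67%, and for 14.9% after quantile normalization. Its 2 blood markers summed to 20.3 array medians, the highest of the saline rats, whose lowest was 7.53, and the heroin rats ranged from 6.94 to 20.2. The part of blood in its levels was not tested. Changes of the 8 genes are therefore also given without this rat. For Btg2, Ier2, Gadd45g and Npas4, where its level was high, that change is given with no test. Leaving out a high control raises the change by itself.

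**Figure D1:**
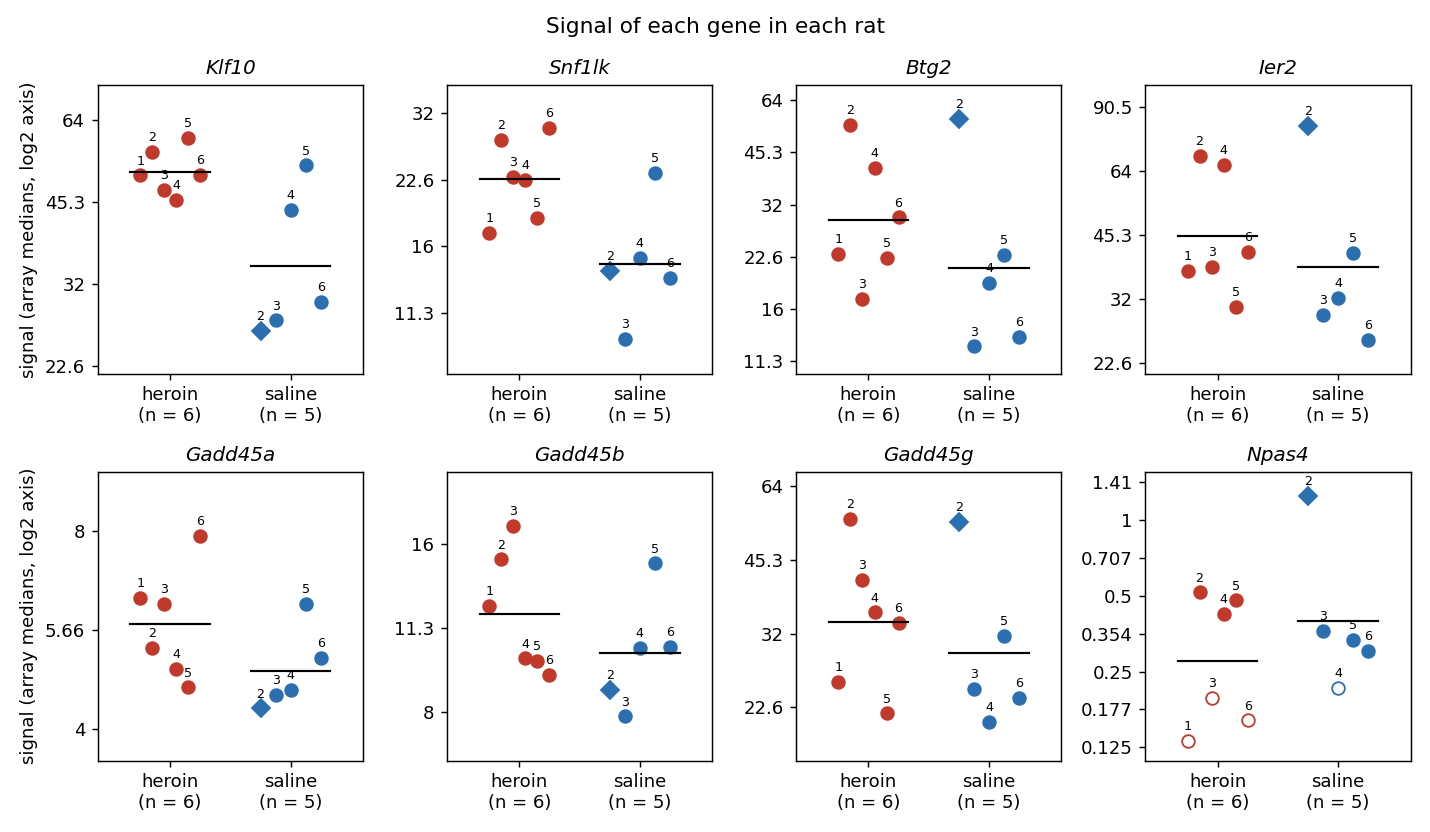
Signal of each gene in each rat, in array medians on a log2 axis, for 6 heroin rats (red) and 5 saline rats (blue), with replicate numbers beside the points, a line at the group mean of the log2 signal, saline rat 2 as a diamond and undetected values as open circles. Klf10 was between 45.7 and 59.5 in heroin rats with 4 of 5 saline rats below that range, whereas saline rat 2 had the highest value for Btg2, Ier2 and Npas4.

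Klf10 and Snf1lk were the genes of this set that rose in heroin rats. Both were past the thresholds, 2 of the 7 tested genes against 1.79% of all tested probes higher in heroin rats. In the other direction 0 of the 7 fell, against 0.927% lower. The genes were chosen with earlier results of these data known, so these counts are partly fixed by that choice and serve as a description only. Klf10 was 1.49-fold and Snf1lk 1.55-fold higher. Both calls were lost after quantile normalization, where 0 of the 7 were past the thresholds against 0.853% of all probes higher, although both values remained above 0. Neither gene was past the thresholds with the methods' t-test, with scaling to the 75th percentile or with the 50th percentile of the probes detected on all arrays. All 7 tested genes had a positive value, with a median of 0.24 on the log2 scale, and 5 of the 7 after quantile normalization, with a median of 0.02.

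Klf10 was measured by a probe at chr7:73842027-73842086 of build rn3, the build of the array files. Exon and untranslated region annotations of that build were not used here for this or any other probe. The heroin rats had signals of 45.7 (lowest), 50.8 (median) and 59.5 (highest) array medians. Saline rats 2 to 6 had 26.2, 27.4, 43.7, 52.8 and 29.6. Saline rats 2, 3 and 6 lay far below all heroin rats, saline rat 4 just below them, and saline rat 5 within their range. The groups thus overlapped through 1 rat. The mean was 51.7 ± 5.16 in heroin rats (SD, n = 6) and 35.97 ± 11.8 in saline rats (SD, n = 5). The change was 0.58 ± 0.18 (limma SE) on the log2 scale, with an unadjusted p = 0.00613 and an adjusted p = 0.263. An exact permutation test over the 462 divisions of the rats, two-sided, gave p = 0.0152, where the smallest possible is 0.00216. After quantile normalization the change was 0.33 ± 0.14 with limma's p = 0.0385 and an exact permutation p = 0.0584.

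A second Klf10 probe, at chr7:73842903-73842962 and 876 bases from the first, gave nearly the same difference. Its signals were 2.89, 4.51 and 5.57 array medians (lowest, median, highest) in heroin rats. Saline rats 2 to 6 had 1.87, 2.24, 3.55, 5.22 and 2.64. As with the brighter probe, saline rats 2 and 3 were the lowest of all rats and saline rat 5 was among the heroin rats. The change of 0.58 ± 0.24 had limma's p = 0.0281, not past the thresholds, and an exact permutation p = 0.0671. Without saline rat 2 the first probe's change was 0.48, with limma's p = 0.0207 and an exact permutation p = 0.0286 over 210 divisions. Without saline rat 3 it was 0.49, with limma's p = 0.0213 and an exact permutation p = 0.0286, so leaving out either rat ended the call. The second probe's change was 0.42 without saline rat 2, with limma's p = 0.0903 and an exact permutation p = 0.152. After quantile normalization without saline rat 2 the first probe's change was 0.28, with limma's p = 0.0943 and an exact permutation p = 0.124.

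Snf1lk, probed at chr20:10280491-10280550, had signals of 17.2, 22.8 and 29.7 array medians (lowest, median, highest) in heroin rats. Saline rats 2 to 6 had 14.1, 9.87, 15.1, 23.5 and 13.5. Saline rats 2, 3, 4 and 6 lay below every heroin rat, and saline rat 5 was above 4 of the 6. The change was 0.63 ± 0.20 on the log2 scale, with limma's unadjusted p = 0.00745 and adjusted p = 0.263, and the exact permutation test gave p = 0.0303. Quantile normalization gave 0.39 ± 0.18 with limma's p = 0.0444 and an exact permutation p = 0.0736. The call held without saline rat 2, where the change was 0.62 with limma's p = 0.0154 and an exact permutation p = 0.0429. With quantile normalization as well, the change without that rat was 0.42, with limma's p = 0.0483 and an exact permutation p = 0.0857. The call was lost without saline rat 3, where the change was 0.49 with limma's p = 0.0268 and an exact permutation p = 0.0619. Saline rat 3 also had the highest median of the 8 oligodendrocyte markers, 0.96 on the centred log2 scale after quantile normalization, and the part of that in the result was not tested.

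Klf10 and Snf1lk shared the order of some rats. For both genes saline rat 5 was the highest saline rat, saline rat 4 the next and heroin rat 2 the second highest of all. The highest heroin rat was number 5 for Klf10 and number 6 for Snf1lk, and heroin rat 6 was the highest rat for 26.7% of all tested probes. There were 5 scans that held 1 rat of each group. With the brighter Klf10 probe the heroin rat was higher in 5 of 5, by 0.06 to 1.09 on the log2 scale. With the second Klf10 probe the heroin rat was higher in 4 of 5, by -0.09 to 1.58. For Snf1lk the heroin rat was higher in 4 of 5, by -0.34 to 1.22. The exception for the second Klf10 probe and for Snf1lk was the scan of rats 5. After quantile normalization the heroin rat was higher in 4 of 5 scans for both genes.

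**Figure D2:**
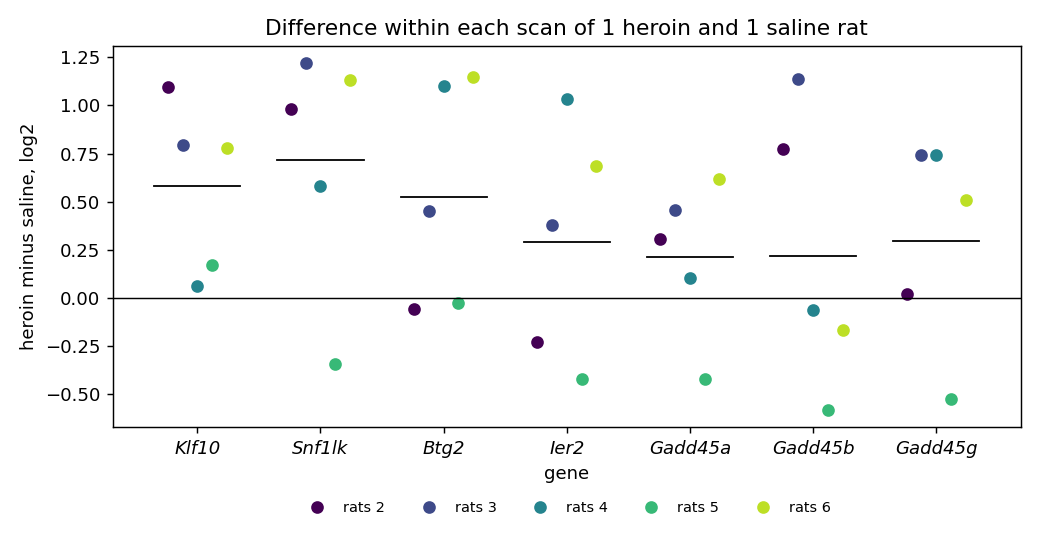
Heroin minus saline difference in log2 signal within each of the 5 scans that held 1 rat of each group (points, coloured by replicate number), for the 7 genes detected on all arrays, with a line at the mean of the 5. The differences of Klf10, drawn for its brighter probe, lay between 0.06 and 1.09, and the pair of rats 5 was below 0 for each of the other 6 genes. The second Klf10 probe, not drawn, was also below 0 in that pair, at -0.09.

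Btg2 and Ier2, the genes with the full cAMP response element upstream, had the largest standard errors of the 7 detected genes and no called difference. Btg2, probed at chr13:47041065-47041124, had signals of 17.1, 26.2 and 54.3 array medians (lowest, median, highest) in heroin rats. Saline rats 2 to 6 had 56.6, 12.5, 19.0, 22.9 and 13.3. Saline rat 2 exceeded every heroin rat, while saline rats 3 and 6 lay below all of them and saline rats 4 and 5 within their range. The change was 0.46 ± 0.36 on the log2 scale (95% interval -0.32 to 1.24), with limma's p = 0.229 and an exact permutation p = 0.327. Without saline rat 2 it was 0.82, given with no test because that rat was named for its level in this gene. After quantile normalization the change was 0.21 with an exact permutation p = 0.662, and 0.61 when that rat was also left out.

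Ier2, probed at chr19:25165474-25165533, had signals of 30.7, 39.7 and 69.5 array medians (lowest, median, highest) in heroin rats. Saline rats 2 to 6 had 81.5, 29.4, 32.2, 41.0 and 25.6. As for Btg2, the top of the order was saline rat 2, then heroin rats 2 and 4, and the other rats of both groups overlapped. The change was 0.24 ± 0.29 (95% interval -0.37 to 0.85) with limma's p = 0.422 and an exact permutation p = 0.506, and 0.00 after quantile normalization. Leaving out saline rat 2 moved it to 0.51, given with no test for the reason stated for Btg2. Without that rat 2 of the 7 genes were past the thresholds, Btg2 and Snf1lk, against 0.931% of all probes higher in heroin rats. Since the rat was named for its high level of Btg2, the passing of Btg2 is not read as a result.

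The same 3 rats, saline 2, heroin 2 and heroin 4, had the highest levels of both Btg2 and Ier2. Saline rat 2 and heroin rat 2 shared a scan, and heroin rat 4 was scanned with saline rat 4. The named gene whose pattern was most like that of Ier2, by the correlation of deviations from group means after quantile normalization over 11 rats, was Cyr61 (r = 0.974), which encodes a secreted matricellular protein and is itself an immediate-early gene. Cyr61 signals were 6.25 array medians in heroin rat 2, 6.98 in heroin rat 4 and 10.2 in saline rat 2. The other 8 rats ranged from 0.544 to 1.05. The rats therefore fell into separate sets for Cyr61, and the 3 high rats were also the 3 highest in Ier2. Over the other 8 rats the correlation with Ier2 was lower, 0.326 for Cyr61, 0.27 for Btg2 and 0.478 for Gadd45g. The 3 rats were set aside for their level of Ier2. That narrows the range of Ier2 and can lower a correlation by itself, so these values are a description only. For Cyr61 the change between the groups was 0.20 ± 0.81, with an exact permutation p = 0.955, and 0.95 without saline rat 2.

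**Figure D3:**
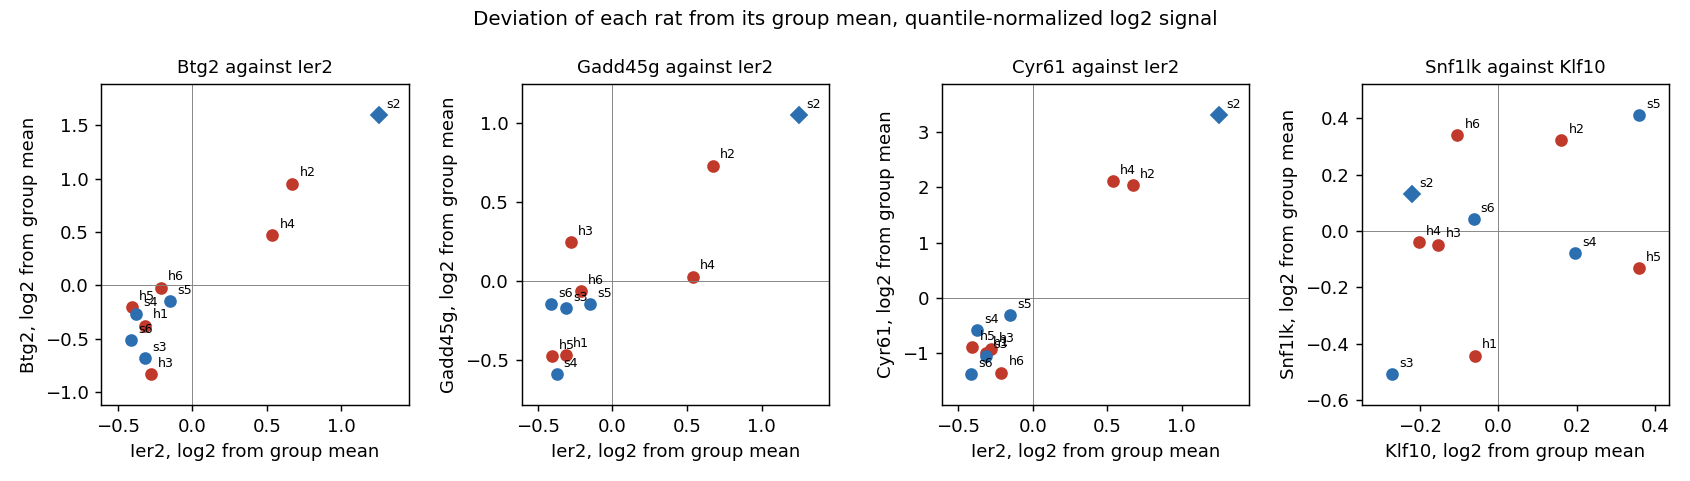
Deviation of each rat from its group mean in quantile-normalized log2 signal, for Btg2, Gadd45g and Cyr61 against Ier2 and for Snf1lk against Klf10 (h, heroin, red; s, saline, blue; numbers are replicates; diamond, saline rat 2). Saline rat 2, heroin rat 2 and heroin rat 4 lay apart from the other 8 rats in the panels of Btg2 and Cyr61, and no such separation appeared for Klf10 and Snf1lk.

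Cell type markers were set beside these 3 rats. On the centred log2 scale the median of the 8 oligodendrocyte markers was -0.31 in saline rat 2, -0.58 in heroin rat 2 and -0.77 in heroin rat 4, the lowest values of the 11 rats. Their summed signal ranged from 361.6 to 908.1 array medians in heroin rats and from 302.7 to 943.6 in saline rats, and no marker of that list was past the thresholds. The median of the 8 endothelium and mural markers was 0.17, -0.11 and 0.02 in the same 3 rats. The part of tissue composition in the levels of Btg2, Ier2 and Cyr61 was not tested.

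The Gadd45 genes encode stress sensors of one family, and none of the 3 was past the thresholds. Gadd45g, probed at chr17:19231059-19231118, had signals of 21.99, 34.5 and 54.8 array medians (lowest, median, highest) in heroin rats. Saline rats 2 to 6 had 54.0, 24.6, 21.1, 31.6 and 23.7, so that saline rat 2 stood level with the highest heroin rat, number 2, saline rat 4 lay below every heroin rat and saline rats 3, 5 and 6 lay within the heroin range. The change was 0.22 ± 0.26 (95% interval -0.34 to 0.77) with an exact permutation p = 0.478. It was -0.03 after quantile normalization, and 0.44 without saline rat 2.

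Gadd45a and Gadd45b did not share the pattern of saline rat 2. Gadd45a, probed at chr4:96894935-96894994, had signals of 4.63 to 7.86 array medians in heroin rats and of 4.30 to 6.20 in saline rats, with heroin rat 6 the highest and saline rat 2 the lowest. Its change was 0.24 ± 0.16 (95% interval -0.09 to 0.57) with an exact permutation p = 0.158, 0.02 after quantile normalization and 0.19 without saline rat 2. Gadd45b, whose probe has 28 bases placed at chr7:10289049-10289076, had signals of 9.31 to 17.2 in heroin rats and of 7.84 to 14.8 in saline rats, with heroin rat 3 the highest. Its change was 0.23 ± 0.20 (95% interval -0.19 to 0.65) with an exact permutation p = 0.301, -0.0047 after quantile normalization and 0.18 without saline rat 2. The median tested probe was 0.18 higher in heroin rats, so the changes of the 3 Gadd45 genes were close to that of the whole array.

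**Figure D4:**
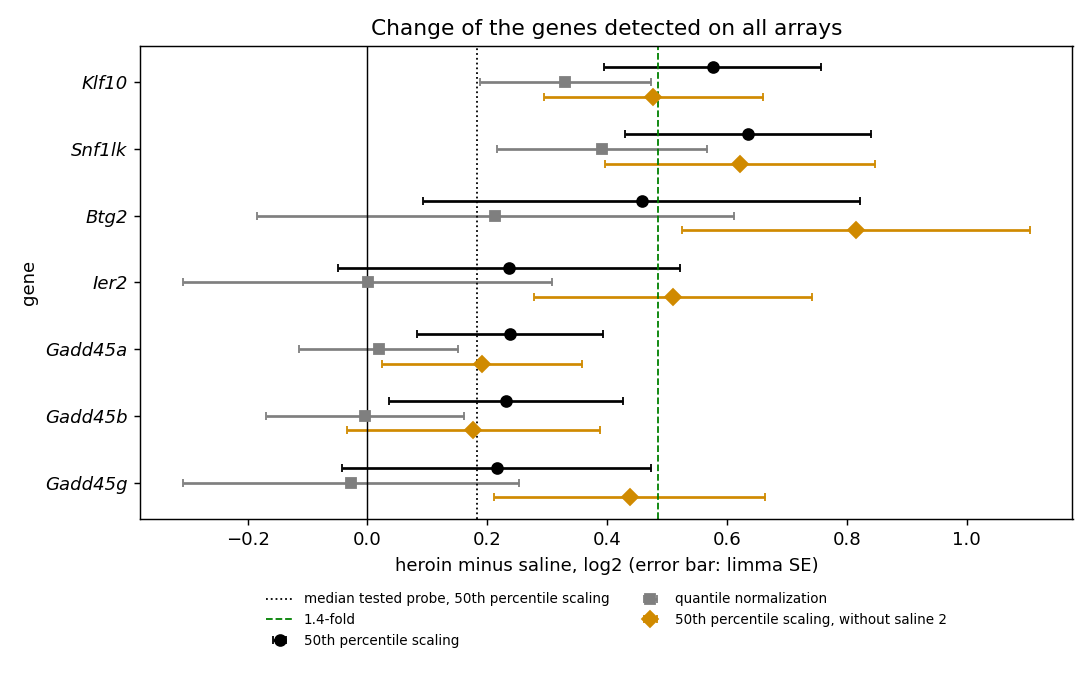
Heroin minus saline change in log2 signal with limma standard errors, for the 7 genes detected on all arrays, with 50th percentile scaling (black), after quantile normalization (grey) and with 50th percentile scaling but without saline rat 2 (orange). The dotted line marks the median tested probe at 0.18 and the dashed line 1.4-fold. Without saline rat 2 the change of Btg2 moved from 0.46 to 0.82 and that of Ier2 from 0.24 to 0.51, while that of Klf10 moved from 0.58 to 0.48.

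Npas4, probed at chr1:207752362-207752421, lay near the limit of detection. It was detected in heroin rats 2, 4 and 5, at 0.515, 0.423 and 0.479 array medians, and in saline rats 2, 3, 5 and 6, at 1.24, 0.363, 0.333 and 0.302. In the 4 rats without detection the listed values ranged from 0.133 to 0.215. Saline rat 2 had more than any other rat, and the other detected saline values lay below the 3 detected heroin values, while 3 heroin rats and 1 saline rat were not detected. A fit that included all probes gave a change of -0.52 ± 0.48 with an exact permutation p = 0.377, and -0.11 without saline rat 2. The mean intensity was 1.53 times the detection limit.

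The 21 pairs of the 7 detected genes were also compared over the 11 rats, on deviations from group means after quantile normalization. By Spearman's rho 0 of 21 pairs passed adjustment, with the smallest adjusted permutation p = 0.145. By Pearson's r 2 of 21 pairs passed, Ier2 with Btg2 and Ier2 with Gadd45g. Since Ier2 separated the 3 rats named above from the others, no pooled value is given for these 2 pairs. The values over the other 8 rats, given above, are limited by the choice of those rats by Ier2. Klf10 and Snf1lk, the called genes, had r = 0.366 (permutation p = 0.267) and rho = 0.218 (p = 0.524), with an adjusted p of 0.611 and 0.846, and r = 0.331 without the 2 rats farthest in Klf10.

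By the same correlation, the named genes most like each other gene were as follows, as a description over 11 rats. They were picked as the highest r among all named genes of the tested probes, so a high r is built into the choice. Shared regulation was not tested. Dyrk2, a protein kinase (r = 0.942), and March5 (0.905) were most like Klf10. Cd68, a lysosomal protein of microglia and macrophages (0.929), Cbwd1 (0.904) and Hgd (0.903) were most like Snf1lk. For Btg2 they were Exoc7, an exocyst subunit (0.952), Fbxo16 (0.948) and Neurl2 (0.941), and for Ier2, after Cyr61, Fbxo16 (0.961) and Ascc1 (0.953). Bambi, a decoy receptor of TGF-beta signalling (0.942), and Myd116, now called Ppp1r15a, a phosphatase subunit of the stress response (0.923), were most like Gadd45g, followed by Fbxo16 (0.907). Gadd45a was most like Usp31 (0.949), S100a10 (0.915) and Htatip2 (0.91), and Gadd45b was most like Ptpre (0.923), Gpd1 (0.907) and Usp39 (0.901). Fbxo16 appeared for Btg2, Ier2 and Gadd45g. Npas4 was not compared in this way.

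Activity-regulated genes beyond the 8 give the setting of these values. The list includes genes that the study itself reported as changed in these rats, namely Bdnf, Dusp5, Dusp6, Egr1, Homer1, Nr4a3 and Rgs2. Its counts and median are therefore partly fixed by that choice and serve as a description only. Of 42 tested genes of the list, 11 were past the thresholds and higher in heroin rats, against 1.79% of all tested probes. In the other direction 0 were lower, against 0.927%. The median change was 0.42 on the log2 scale against 0.18 for all tested probes. The genes that rose included the transcription factors Nr4a3 (0.67), Egr1 (0.66), Egr2 (1.02) and Egr4 (0.87), the neurotrophin Bdnf (0.90), the postsynaptic scaffold Homer1 (0.51), the MAP kinase phosphatase Dusp6 (0.63) and the cyclooxygenase Ptgs2 (0.76). After quantile normalization 4 of the 42 were past the thresholds, Bdnf, Egr2, Egr4 and Ptgs2, against 0.853% of all tested probes higher. The median of the list was then 0.22. The changes of Klf10 and Snf1lk lay within the range of the 11 called genes, 0.51 to 1.02, and those of Ier2 and the Gadd45 genes lay below the list's median.

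**Figure D5:**
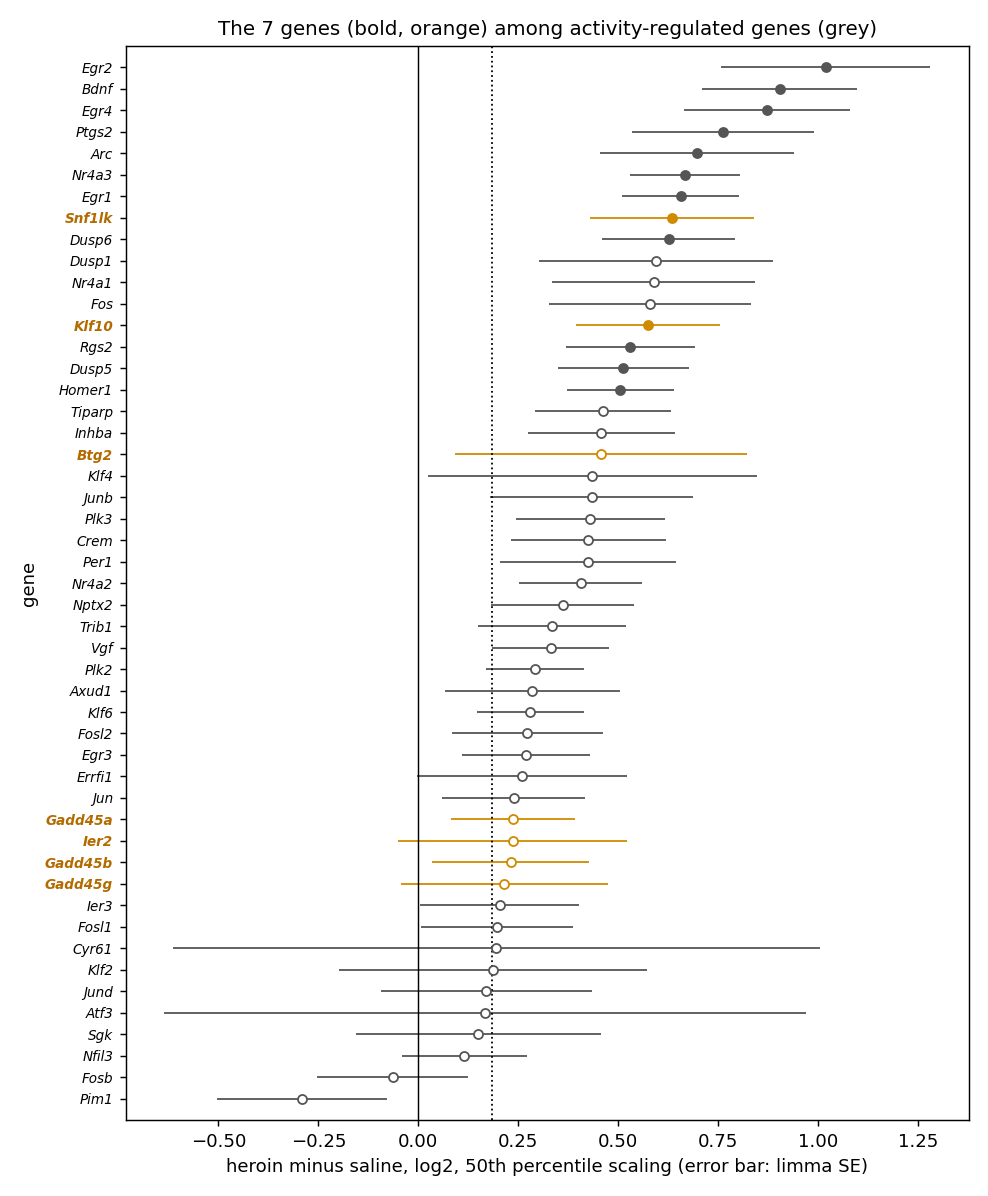
Heroin minus saline change in log2 signal with limma standard errors (50th percentile scaling) for the 7 detected genes (orange, bold) and 42 activity-regulated genes (grey), ordered by change, with filled points past both thresholds and a dotted line at the median tested probe. Snf1lk and Klf10 stood among the called genes, and Ier2, Gadd45a, Gadd45b and Gadd45g stood near the dotted line at 0.18.

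Saline rat 2 was the highest of the 11 rats for 6 of the 42 activity-regulated genes, and for 11 of the 42 after quantile normalization. The 6 genes, named after their values were seen, were Fos, Dusp1, Egr3, Klf2, Cyr61 and Pim1. Fos had 16.9 array medians in saline rat 2, and 6.84, 8.43, 9.01 and 4.76 in saline rats 3 to 6, against 9.77 to 16.9 in heroin rats. The saline rats other than number 2 were thus all below the lowest heroin rat. Its change was 0.58, not past the thresholds, with an exact permutation p = 0.0866, and 0.34 after quantile normalization. Without saline rat 2 it was 0.83, given with no test because the gene was named for its level in that rat. In contrast this rat was, with 50th percentile scaling, the lowest of the 11 for Nr4a3, Homer1, Inhba, Plk2, Crem, Errfi1 and Sgk. Its activity-regulated genes thus lay at both ends of the order. With that scaling this rat was also the lowest for several genes of the partner and pathway lists below. Its low levels were therefore not particular to activity-regulated genes, and the share of all tested probes at which it was lowest is not given here. After quantile normalization it stayed the lowest for Homer1, Inhba and Crem, but not for Nr4a3, Plk2, Errfi1 and Sgk. Without saline rat 2, 15 of the 42 were past the thresholds and higher in heroin rats, against 0.931% of all tested probes. That count includes genes named for their level in this rat, such as Fos.

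Partners and pathway genes of the 8 genes are given as 8 short lists. Of all tested probes 1.79% were higher and 0.927% lower. Counts of 0 or 1 in lists this short therefore cannot be told apart from those shares. Of 10 tested partners of the Gadd45 proteins 1 rose, against 1.79% of all tested probes, and 0 fell, with a median of 0.28, and the gene that rose was Mapk8, which encodes JNK1 (1.52-fold, 0.61 ± 0.20, exact permutation p = 0.0152). It was 0.37 after quantile normalization and 0.58 without saline rat 2, past the thresholds in neither. For the p53 and stress response 0 of 14 genes were past the thresholds in either direction, with a median of 0.27. None was past them among 8 genes of the Btg and Tob family with their deadenylases (median 0.34), 9 genes of TGF-beta signalling (0.23), 8 of the Klf family (0.16), 7 of the list of SIK, Crtc and class II histone deacetylase genes (0.22), 6 bHLH-PAS genes (0.11) and 2 of the Ier family (0.33). After quantile normalization the medians of these 8 lists ranged from -0.05 to 0.13, and that of the Klf family, the bHLH-PAS genes and the SIK list lay below 0. Among the cell type marker lists 1 gene was past the thresholds, Ptprc, the leukocyte marker CD45, lower in heroin rats (-0.50 ± 0.16, exact permutation p = 0.0108). Of all tested probes 0.927% were lower. Ptprc stood in the list of 7 tested microglia markers, where the other 6 had positive changes and the median was 0.16. Ptprc was -0.44 after quantile normalization and -0.47 without saline rat 2, past the thresholds in neither.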

How the data were processed

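Total RNA (500 ng per rat) was labelled with Cy3 and hybridised to single-colour Agilent arrays, 1 per rat. The authors deposited each spot's signal intensity, corrected for background by Feature Extraction, whose version the file headers give as 9.5.1.1, and not scaled between arrays. A second deposited table, made in GeneSpring, holds a ratio to the median of the probe and served here only as an alternative. In it 23670 probes were listed and Npas4 was not. Spot flags deposited with the intensities were used to drop spots marked non-uniform or outlying (99 to 231 per array).

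Following the methods, intensities below 5 were set to 5, spots of a probe were averaged and every value was divided by the array's 50th percentile before log2 was taken. A probe was detected where at least 0.5 of its spots were well above background. Tested probes were detected on all 11 arrays with at least 2 usable arrays per group. Groups were compared with limma 3.58.1 in R 4.3.3 (lmFit and eBayes, two-sided, Benjamini-Hochberg over 25555 probes) in place of the methods' unequal-variance test. A gene was called past the thresholds at an unadjusted p under 0.02 and at least 1.4-fold. Single probes were also compared by exact permutation of the rats, and correlations by 100000 permutations. The brightest probe stood for a gene. Named genes were all probes of the 8 genes, up to 8 genes per list past the thresholds by p, and the 3 named genes most like each gene, of which 1 is not reported here. The 8 genes and all lists were chosen with earlier results of these data known. The fits were also run on simulated data with independent noise for each probe and no shift of whole arrays. That check therefore does not cover the scaling or the array position. The number of arrays limits the precision. The p-values set a group difference against the spread between rats within the groups, and group cannot be told apart from array position.

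The methods name 6 arrays per group, and a further saline array was not analysed here. Same-numbered rats of numbers 2 to 6 shared a scan per the file headers. The correlation of their deviations from group means was 0.374, -0.0952, 0.338, 0.141 and -0.272. Alternatives were other scalings, normexp (offset 50), filters, tests, the scan as a block and leaving out each rat.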

Additional observations from a re-analysis of the deposited data

How the results depend on the processing

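Against 694 probes past both thresholds, the count was 126 with the normexp background correction, 457 after quantile normalization, 308 with the methods' t-test, 1560 without a detection filter and 1067 with detection in 1 group. It ranged from 343 to 2352 when each rat was left out, the lowest without saline rat 2 and the highest without saline rat 5. The count of the 7 genes past the thresholds was 0 with scaling to the 75th percentile, with quantile normalization, with the 50th percentile of probes detected on all arrays and with the methods' t-test, and ranged from 0 (without saline rat 3) to 2 when each rat was left out. It was 2 with normexp, either change of the detection filter, flagged spots kept, the authors' relative values, scaling before the floor, eBayes with trend and robust, and the mean of a gene's probes. The median change of the 7 genes was 0.0201 with the 75th percentile and 0.019 with quantile normalization, and ranged from 0.21 to 0.48 when each rat was left out. The count of activity-regulated genes was 3 with the 75th percentile, 4 with quantile normalization and 4 with the 50th percentile of detected probes. The replicate block, which is also the shared scan, gave 806 probes and 14 activity-regulated genes and kept Klf10 (0.58) and Snf1lk (0.72) as the 2 called genes. Chosen after seeing the data, the block after quantile normalization gave 410 probes, 0 of the 7 genes and 2 activity-regulated genes, and quantile normalization without saline rat 2 gave 254 probes, 0 of the 7 genes and 11 activity-regulated genes. Gadd45g turned to -0.0026 with the 75th percentile and -0.0281 with quantile normalization. Gadd45b turned to -0.0047 with quantile normalization, to -0.0051 with the block after it and to -0.00903 without saline rat 2 after quantile normalization, and Npas4 to 0.12 in that last fit. The causes were not tested. Npas4 lay near the detection limit.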
